A study of Mus musculus with 18 samples.

Results

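Arid1a and 3 related genes, Arid1b, Arid2 and Pbrm1, were followed in mouse hippocampus, either wild type (WT) or carrying an Arid1a conditional knockout (cKO). The genes were taken by symbol and are 4 of the 55385 genes in the RNA tables. RNA was sequenced from 2 libraries of each genotype at the age of 3 weeks (postnatal day 21, P21) and from 3 of each on embryonic day 16.5 (E16.5). Chromatin immunoprecipitation sequencing (ChIP-seq) at 3 weeks gave 1 library per genotype for H3K4me3, H3K27ac, H3K27me3 and input. All mice were C57BL/6, and all RNA was polyA RNA. The Cre driver, the cells in which it acts and the exons removed are not given in the labels, so the fraction of hippocampal cells that kept an intact Arid1a is unknown.

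Arid1a and Arid1b encode large DNA-binding subunits of the canonical BAF (SWI/SNF) chromatin remodelling complex, which uses ATP to slide or evict nucleosomes. A BAF complex holds either ARID1A or ARID1B, not both, and loss of ARID1A can leave cells reliant on ARID1B. ARID2 and PBRM1 belong to the sister complex PBAF, in which ARID2 takes the place of ARID1A or ARID1B. PBRM1 reads acetylated histones through its bromodomains and has no ARID domain, so the label "ARID paralog" holds for Arid1b and Arid2 but not for Pbrm1.

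In GRCm38.p6 the span of Arid1a (ENSMUSG00000007880.16) is chr4:133679008-133756769 on the minus strand, and that of Arid1b (ENSMUSG00000069729.14) is chr17:4994297-5347656 on the plus strand. Arid2 (ENSMUSG00000033237.19) spans chr15:96287522-96405463, and Pbrm1 (ENSMUSG00000042323.17) spans chr14:31019138-31121592 on the plus strand. RefSeq promoter sequences of the same build matched 3 of the 4 genes, Arid2 being the one without an entry. The 250 bases before 2 annotated starts of Arid1a and 1 of Arid1b are shown because H3K4me3 and H3K27ac peaks, described further on, lie over them in both genotypes. They are written 5′ to 3′ on the gene's own strand, with each CG dinucleotide in capitals. The first Arid1a window is chr4:133756770-133757019, before the outermost start. The second is chr4:133753986-133754235, before a start 2784 bases further into the gene. The Arid1b window is chr17:4994824-4995073, before a start that lies 777 bases inside the gene span.
Arid1a outer start: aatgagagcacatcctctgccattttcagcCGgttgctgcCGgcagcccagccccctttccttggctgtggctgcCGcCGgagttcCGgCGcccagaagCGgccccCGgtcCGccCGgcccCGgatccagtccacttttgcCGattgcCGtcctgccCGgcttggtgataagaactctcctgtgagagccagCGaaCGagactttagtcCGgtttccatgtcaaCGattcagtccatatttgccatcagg
Arid1a inner start: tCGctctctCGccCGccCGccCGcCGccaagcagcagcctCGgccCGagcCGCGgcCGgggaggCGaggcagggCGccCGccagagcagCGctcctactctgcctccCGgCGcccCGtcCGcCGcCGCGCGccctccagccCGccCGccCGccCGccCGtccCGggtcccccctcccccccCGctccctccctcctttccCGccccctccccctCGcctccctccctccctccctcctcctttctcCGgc
Arid1b start: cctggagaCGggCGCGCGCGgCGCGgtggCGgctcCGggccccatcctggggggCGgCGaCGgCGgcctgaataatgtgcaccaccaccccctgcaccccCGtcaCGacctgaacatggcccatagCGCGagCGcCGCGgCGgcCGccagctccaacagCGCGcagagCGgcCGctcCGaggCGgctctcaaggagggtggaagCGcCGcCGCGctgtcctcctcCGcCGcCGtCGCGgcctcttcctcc
The outer Arid1a window holds 18 CG dinucleotides, the inner one 33 and the Arid1b window 37. The inner Arid1a window and the Arid1b window lie inside the gene spans and may overlap exons of longer transcripts. Among 32851 RefSeq promoter windows of the same length the median was 6, with quartiles of 2 and 16. At least 18 were found in 21.67% of them, at least 33 in 4.03% and at least 37 in 2.2%. The Pbrm1 window at chr14:31018888-31019137 holds 31, a number reached by 5.19% of windows. CG is its own reverse complement, so a count on 1 strand is the count on both.

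The RNA tables hold estimated counts per gene, with totals per library between 20089631 and 20332148 at P21 and between 17662335 and 19760764 at the embryonic age. Of 90 markers in 12 cell type lists none was at 0 in every library of an age, but 1 at P21 and 8 at E16.5 were at 0 in at least 1 library. Of the 7 pyramidal neuron markers that define the tissue, Spink8 had 0 to 1 counts at E16.5. The cKO libraries differed from WT in the summed level of many marker lists, in counts scaled to library size (CPM). Of all single genes tested, 27.9% had every cKO library below every WT library at P21 and 28.2% above. At E16.5 these shares were 15.3% and 14%. At P21 the 6 markers of dentate granule neurons summed to 461 to 495 CPM in WT and 229 to 237 in cKO, and 11 oligodendrocyte markers to 6146 to 6482 and 3727 to 3951. Microglia (269 to 299 CPM in WT, 174 to 183 in cKO) and astrocyte markers (3611 in both WT libraries, 3062 to 3203 in cKO) were also lower without overlap. The astrocyte markers were mixed, with 3 of 8 called lower and 1 higher by edgeR. Slc1a2 had 48296 to 48914 counts in WT and 36452 to 41167 in cKO. Slc1a3 (10974 to 11452, 13172 to 15101) and Gjb6 (924 to 1136, 1689 to 1801) went the other way. The 10 striatal markers summed to 162 to 185 CPM in WT and 241 to 344 in cKO. Pyramidal, thalamic, interneuron, endothelial and cycling progenitor sums were likewise higher in cKO without overlap. The cycling progenitor, pyramidal and endothelial markers were mixed. Mki67 (49 to 53 counts in WT, 15 to 24 in cKO) and Top2a (52 to 53, 14 to 19) were lower. Sox2 (569 to 617, 824 to 883), Pax6, Eomes and Hes5 were higher. Pyramidal Wfs1 (4430 to 4633, 8572 to 11462) and Amigo2 were higher. Neurod6 (5721 to 6381, 5313 to 5541) and Zbtb20 (6889 to 6960, 5333 to 5626) were lower. Endothelial Tek (214 to 239, 116 to 133) was lower, and Pecam1 and Cldn5 were higher. At E16.5 the cKO sums were lower without overlap for microglia (89.7 to 157 CPM in WT, 42.8 to 65.9 in cKO), astrocytes (497 to 530, 209.9 to 362), oligodendrocytes (226 to 241, 120.5 to 182), granule neurons (109 to 129, 26.9 to 76.3) and endothelium (126 to 260.0, 91.1 to 104), and higher for cycling progenitors. By edgeR, 22 of 87 markers tested were called lower and 13 higher at P21 (3.91% and 2.81% of all genes). At E16.5 edgeR called none of 82, with 18 lower and 5 higher at an unadjusted p under 0.05. Of all 16958 genes tested, 1951 were lower and 1548 (9.13%) higher at that unadjusted threshold. DESeq2 called 14 markers lower and 3 higher, where it called 4.5% of all genes lower and 2.22% higher. Choroid plexus and ependymal markers varied between libraries of 1 group, from 1325 to 4384 CPM in P21 cKO and from 56.7 to 4887 CPM in E16.5 WT. Xist counts were 7 to 37 in replicate 1 at P21 and replicate 3 at E16.5, in both genotypes, and 3572 to 9159 in the other libraries.

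Arid1a, the targeted gene, was lower in every cKO library than in every WT library at both ages, and neither age reached 0. At P21 its counts were 4291 and 4089 in WT and 2281 and 1778 in cKO. On a CPM scale shared by the 10 libraries these were 233 and 220 in WT and 116 and 95.6 in cKO, with means of 226 ± 9.36 (SD, n = 2) and 106 ± 14.4 (SD, n = 2). The 2 groups did not overlap, and the lower WT library was well above the higher cKO library. The fitted log2 change was -1.08 (SE 0.13; 95% interval -1.37 to -0.78), with an adjusted p of 0.00507 by the quasi-likelihood F test of edgeR. The cKO tissue thus held 47.4% of the WT level (95% interval 38.7% to 58.1%). At this age 3.91% of the 17407 genes tested were called lower, and Arid1a ranked 73 among genes with a lower estimate when these were ordered by p. Lower values without overlap, as Arid1a showed, were found for 27.9% of genes.

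At E16.5 the Arid1a counts were 4983, 5489 and 5560 in WT and 3210, 3100 and 3527 in cKO. These correspond to 248, 266 and 272 CPM in WT and 173, 169 and 169 CPM in cKO. The cKO libraries lay close together, and all 3 were below the lowest WT library. The means were 262 ± 12.2 CPM (SD, n = 3) in WT and 170.2 ± 2.13 CPM (SD, n = 3) in cKO. The log2 change was -0.64 (SE 0.06; 95% interval -0.78 to -0.50), which leaves 64.1% of the WT level (95% interval 58.2% to 70.6%). Its adjusted p was 0.0320 in edgeR, where 0.112% of 16958 genes were called lower and 15.3% were lower without overlap. That call depended on having all 6 libraries: leaving out any 1 of them gave a log2 change of -0.67 to -0.61 with an adjusted p of 0.0580 to 0.237 in edgeR. The authors' deposited table gives Arid1a a log2 change of -0.63 and an adjusted p of 1.83e-15 at E16.5, and -1.08 with 1.77e-12 at P21.

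The Arid1a decrease was larger at P21 than at E16.5 in the estimates, by -0.48 on the log2 scale (SE 0.13; 95% interval -0.77 to -0.18). Its adjusted p of 0.101 in edgeR missed the threshold of 0.05, which 1.16% of 18979 genes passed for this contrast. DESeq2 on the same counts gave -0.53 with an adjusted p of 0.0151, and passed 7.51% of genes. Counts per gene include any transcript made from an allele lacking the deleted part, so the remaining Arid1a RNA is not a measure of intact message. In bulk tissue, fewer cells of a type and less RNA per cell cannot be told apart. The part of the shifts in marker levels at both ages in the Arid1a values was not tested.

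**Figure D1:**
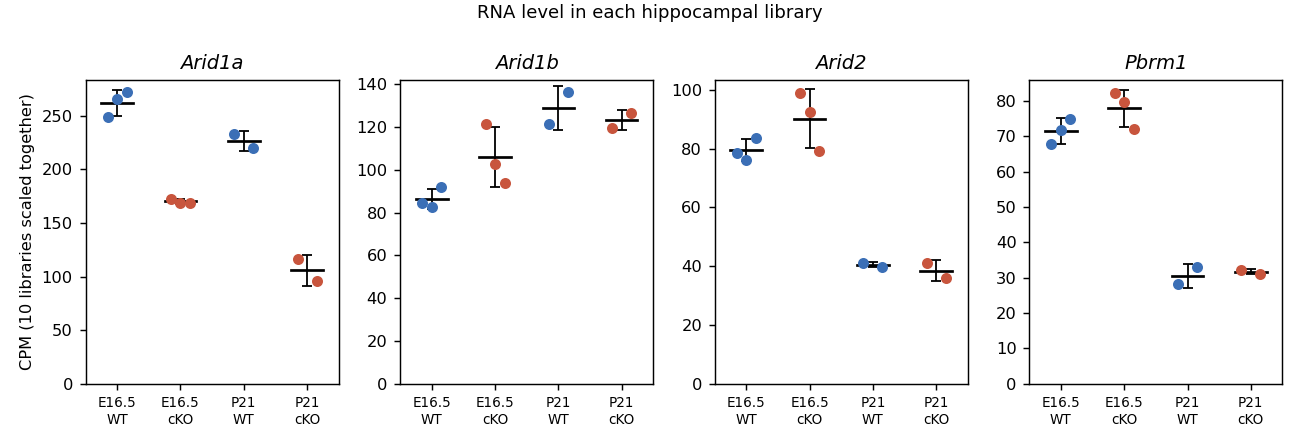
RNA level of the 4 genes in each library, in CPM with the 10 libraries scaled together (linear axes from 0, 1 scale per gene). Points are libraries, horizontal bars group means and error bars the SD (n = 3 at E16.5, n = 2 at P21); the Arid1a points of cKO lie below those of WT at both ages, and for the other genes the largest differences are between ages.

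Arid1b, the alternative ARID subunit of canonical BAF, did not rise at P21. Its counts were 2235 and 2532 in WT and 2355 and 2351 in cKO, or 121 and 136 CPM against 120 and 126 CPM. On this scale of the 10 libraries the lower cKO library lay just below both WT libraries and the other between them. Scaled within P21, as in the test, both cKO libraries (113.5 and 117.9 CPM) lay between those of WT (111.9 and 127.0). The log2 change was -0.05 (SE 0.11; 95% interval -0.30 to 0.21), with an adjusted p of 0.835 in edgeR. The interval spans 81.4% to 115.4% of the WT level, so a rise of more than that was outside it. At this age 2.81% of genes were called higher and 28.2% were higher without overlap.

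At E16.5 Arid1b counts were 1696, 1709 and 1875 in WT and 2255, 1883 and 1958 in cKO. On the shared scale these were 84.6, 82.8 and 91.8 CPM in WT and 121, 102.6 and 93.8 CPM in cKO. Every cKO library was above every WT library, by a narrow margin between the third replicates of each genotype. The means were 86.4 ± 4.75 CPM (SD, n = 3) and 105.9 ± 14.0 CPM (SD, n = 3). The estimate was a log2 change of 0.28 (SE 0.10; 95% interval 0.03 to 0.53), or 121.1% of WT (95% interval 101.8% to 144.0%). It did not pass the adjusted threshold in edgeR (unadjusted p 0.0354, adjusted p 0.217), nor in the authors' deposited table (log2 change 0.29, adjusted p 0.147). At E16.5, 0.0118% of genes were called higher and 14% were higher without overlap. The difference between the 2 ages in the Arid1b effect was -0.36 (SE 0.16), with an adjusted p of 0.249 in edgeR.

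Arid2, the ARID subunit of PBAF, showed no called change at either age. At P21 its counts were 758 and 742 in WT and 805 and 668 in cKO, with a log2 change of -0.06 (SE 0.12; 95% interval -0.33 to 0.22; adjusted p 0.815 in edgeR). At E16.5 they were 1576, 1574 and 1709 in WT and 1838, 1697 and 1654 in cKO, with a log2 change of 0.16 (SE 0.09; 95% interval -0.06 to 0.39; adjusted p 0.347 in edgeR). On the CPM scale of the 10 libraries the P21 cKO libraries lay within and below the WT range (40.9 and 35.9 against 39.9 to 41.2). Scaled within P21, as in the test, they lay above and below it (38.8 and 33.5 against 37.2 to 38.0). At E16.5 the third cKO library (79.3 on the shared scale) lay within the WT range (76.3 to 83.6) and the other cKO libraries above it. The intervals allow a level of 79.5% to 116.5% of WT at P21 and of 96.1% to 130.6% at E16.5.

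Pbrm1, the bromodomain subunit of PBAF, likewise had no called change. Its P21 counts were 517 and 613 in WT and 632 and 579 in cKO, with a log2 change of 0.07 (SE 0.13; 95% interval -0.23 to 0.37; adjusted p 0.780 in edgeR). The E16.5 counts were 1357, 1483 and 1529 in WT and 1527, 1461 and 1504 in cKO, with a log2 change of 0.11 (SE 0.07; 95% interval -0.07 to 0.28; adjusted p 0.425 in edgeR). The groups overlapped at both ages, and the intervals reach 129.4% of WT at P21 and 121.5% at E16.5. The sources do not say whether the counting used strand, and Smim4, whose span overlaps Pbrm1, had 57 to 116 counts per library, so reads could be shared between them.

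Arid1a made up a smaller share of the summed Arid1a and Arid1b counts in cKO at both ages. At P21 the WT libraries had shares of 65.8% and 61.8%, and the cKO libraries 49.2% and 43.1%. At E16.5 the WT shares were 74.6%, 76.3% and 74.8%, and those of cKO 58.7%, 62.2% and 64.3%. The group means were 63.8% ± 2.82 against 46.1% ± 4.34 (SD, n = 2) at P21 and 75.2% ± 0.907 against 61.8% ± 2.81 (SD, n = 3) at E16.5. The groups did not overlap at either age, and no test was made of a ratio that holds the targeted gene. Counts were not divided by transcript length, so the share is read between libraries and not as the proportion of the 2 proteins' messages.

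**Figure D2:**
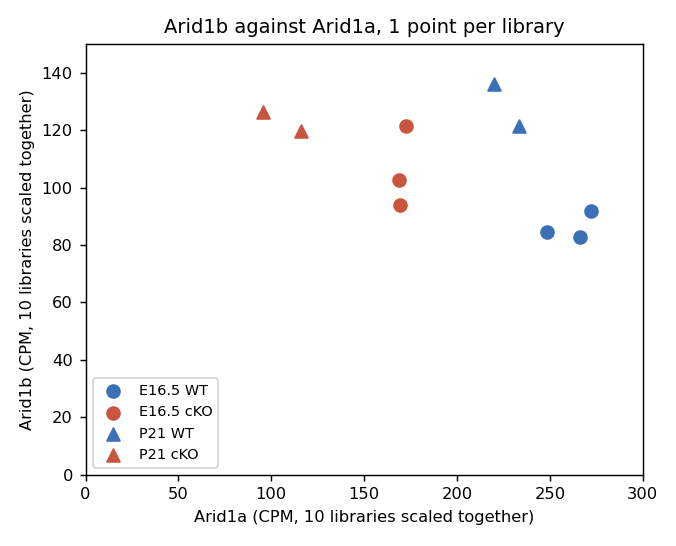
Arid1b against Arid1a level in each library, both in CPM with the 10 libraries scaled together (linear axes from 0, circles E16.5, triangles P21, blue WT, red cKO). At P21 the cKO points sit to the left of the WT points at a like height; at E16.5 the 3 cKO points sit to the left and higher, between 93.8 and 121 CPM of Arid1b against 82.8 to 91.8 CPM in WT.

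Between the ages, the estimated difference in WT level of Arid1b, Arid2 and Pbrm1 was larger than their estimated cKO effect at either age. In 1 fit of the 10 libraries Arid2 was lower at P21 than at E16.5 by a log2 change of -0.97 (SE 0.11), with an adjusted p of 5.59e-05 in edgeR. Its WT means were 79.5 ± 3.77 CPM (SD, n = 3) at E16.5 and 40.5 ± 0.906 CPM (SD, n = 2) at P21. Pbrm1 was lower at P21 by -1.23 (SE 0.10; adjusted p 7.13e-06 in edgeR), with WT means of 71.4 ± 3.60 CPM at E16.5 and 30.5 ± 3.45 CPM at P21. Arid1b ran the other way, with a higher level at P21 by 0.58 (SE 0.11; adjusted p 0.00172 in edgeR), from 86.4 ± 4.75 to 128.8 ± 10.4 CPM. Arid1a was -0.21 (SE 0.09) lower at P21 with an adjusted p of 0.0710 in edgeR, so its age difference did not pass. At this contrast 32.6% of genes were called lower and 27.8% higher at P21, with a median log2 difference of -0.12 over all 18979 genes. The 2 ages were deposited as separate tables, so age and any difference in processing between them cannot be told apart.

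Ordered by level, Arid1a ran from WT at E16.5 (248 to 272 CPM) through WT at P21 (220 to 233) and cKO at E16.5 (169 to 173) to cKO at P21 (95.6 to 116), and no 2 neighbouring groups overlapped. For Arid1b the order was WT at E16.5 (82.8 to 91.8 CPM), cKO at E16.5 (93.8 to 121), and then cKO (120 to 126) and WT (121 to 136) at P21, where neighbours from cKO at E16.5 upward overlapped. For Arid2 and Pbrm1 all E16.5 libraries were above all P21 libraries, and the genotypes within an age overlapped.

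Of 39 other SWI/SNF and ARID genes in lists chosen with earlier results of these data known, 38 passed the filter on low counts at P21 and 37 at the embryonic age. Arid3c, with 7 counts in all at P21 and 13 at E16.5, was left out at both ages. Kdm5d was left out at E16.5, where its 1167 counts were uneven between libraries (9.41 ± 15.7 CPM in WT; SD, n = 3). At P21, 3 of the 38 passed the threshold and all 3 were lower, where 3.91% of all genes were called lower and 2.81% higher. Dpf3, a BAF subunit that reads modified histones, had 13.4 ± 0.896 CPM in WT and 4.88 ± 1.66 CPM in cKO (SD, n = 2 each), a log2 change of -1.43 (SE 0.25; adjusted p 0.0197 in edgeR). Bcl11b, a zinc finger factor that associates with BAF in neurons, went from 201 ± 7.06 to 116.8 ± 18.3 CPM, a log2 change of -0.76 (SE 0.13; adjusted p 0.0162 in edgeR). Actl6b, the actin-related subunit of neuronal BAF, went from 70.1 ± 2.53 to 50.8 ± 2.33 CPM, a log2 change of -0.45 (SE 0.10; adjusted p 0.0421 in edgeR). All 3 calls were lost without WT replicate 2, where the adjusted p in edgeR was 0.0642 for Dpf3, 0.0599 for Bcl11b and 0.207 for Actl6b; Actl6b was also lost without WT replicate 1 (0.236). Upper-quartile scaling ended the Actl6b call (adjusted p 0.0578 in edgeR), and 1 fit of the 10 libraries ended those of Dpf3 (0.0592) and Actl6b (0.0858). In the same comparison 5 of 6 granule neuron markers (461 to 495 CPM in sum in WT against 229 to 237 in cKO), 7 of 11 oligodendrocyte and 5 of 8 microglia markers were called lower (3.91% of all genes) and 3 of 10 striatal markers higher (2.81%), and their part in these values was not tested.

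The rest of the subunits did not pass at P21. Among the 27 SWI/SNF genes, 7 were lower at an unadjusted p under 0.05 in edgeR (25.9% against 13.2% of all genes). In the other direction 1 was higher (3.70%), where 2036 of all 17407 genes tested were higher. Their median log2 change was -0.02 against 0.01 over all genes tested. In each list with no call, the gene with the lowest p was Smarca4 (BRG1), an ATPase of the complex (-0.32, adjusted p 0.114), Phf10 of PBAF (0.19, adjusted p 0.318), Bicra of non-canonical BAF (-0.13, adjusted p 0.524) and, among other ARID genes, the histone demethylase Kdm5c (-0.36, adjusted p 0.122), all by edgeR.

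At E16.5 none of the 37 genes passed in edgeR. At an unadjusted p under 0.05, 11 of the 37 were higher and 2 lower, and 8 of 27 SWI/SNF genes were higher (29.6% against 9.13% of all genes) and 1 was lower. The median log2 change of the 27 was 0.13 against -0.01 over all genes. The lowest p values per list belonged to Smarca4 (0.38, adjusted p 0.167), Actl6a, the actin-related subunit of progenitor BAF (0.40, adjusted p 0.116), Dpf3 (-1.28, adjusted p 0.144), Brd7 of PBAF (0.11, adjusted p 0.270), Bicra (0.24, adjusted p 0.242) and Jarid2, a partner of the Polycomb repressor PRC2 (0.37, adjusted p 0.141), all by edgeR. With DESeq2, 6 genes of the lists were called higher (Actl6a, Jarid2, Smarca4, Smarcc1, Smarcd3 and Smarce1) and 2 lower (Arid5a and Dpf3); they were named after their values were seen. Over all genes DESeq2 called 2.22% higher and 4.5% lower at E16.5. Cycling progenitor markers summed to 430 to 456 CPM in WT and 518 to 638 CPM in cKO at E16.5, and none of the 8 was called by edgeR, with 4 higher at an unadjusted p under 0.05 and 2 called higher by DESeq2. Eomes, of intermediate progenitors, had 2281 to 2845 counts in WT and 3861 to 4673 in cKO, and Pax6 859 to 987 and 1065 to 1310, whereas the groups overlapped for Mki67 (903 to 1042, 728 to 1022), Hes5 (441 to 471, 180 to 566) and Sox2 (1555 to 1943, 1116 to 2047). The part of these markers, and of the glial, granule neuron and endothelial markers that were lower at this age, in the subunit values was not tested.

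**Figure D3:**
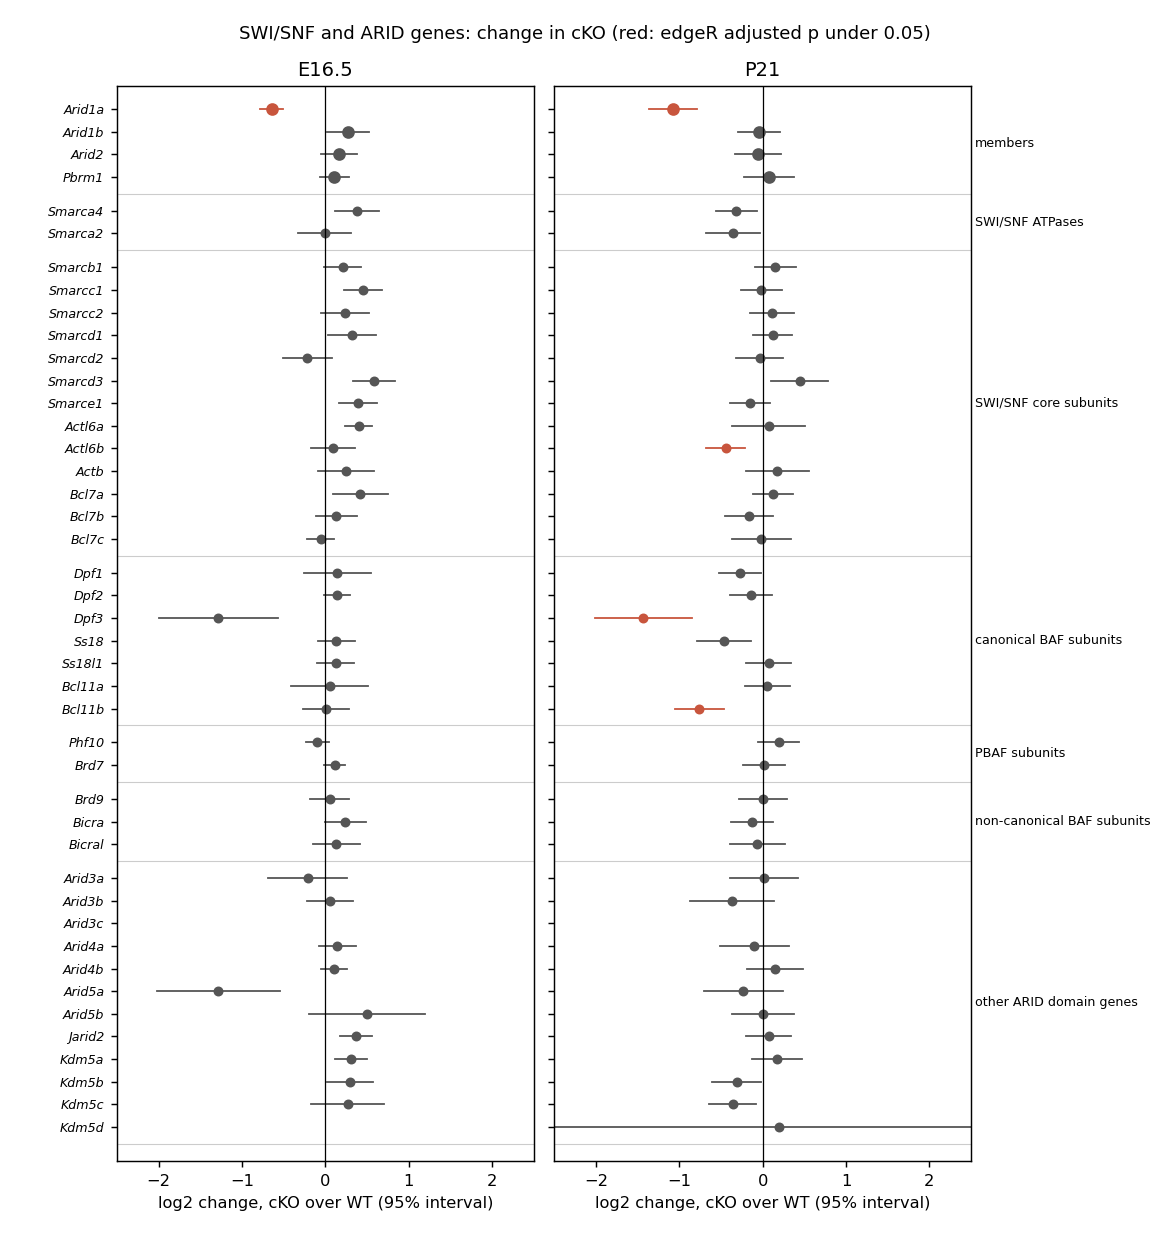
Log2 change in cKO over WT with its 95% interval from edgeR for the 4 genes (top) and the SWI/SNF and ARID lists at E16.5 (left) and P21 (right); red marks an adjusted p under 0.05, and genes with no point were not tested. Arid1a at both ages and Dpf3, Bcl11b and Actl6b at P21 are red, and the interval of Kdm5d at P21 runs past the axis.

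The genes whose pattern over the 10 libraries was most like each member were ranked by the root mean square difference of log2 CPM after centring, among 11653 genes. For Arid1a these were Igdcc4 (0.113), Csmd2 (0.169) and Ttyh2 (0.203). Since the likeness was measured in these libraries, lower values in cKO were part of the choice, and the log2 changes of Igdcc4, -1.38 at P21 and -0.62 at E16.5, are a description with no test. For Arid1b they were Nrbf2 (0.0743), Synrg (0.0775) and Rhot1 (0.0824), for Arid2 Zcchc8 (0.0405), Chchd1 (0.0525) and Jmjd6 (0.0547), and for Pbrm1 Zfp846 (0.0542), Syncrip (0.0623) and Cttnbp2nl (0.0634). With centring within each age, 2 of these 12 genes, Igdcc4 and Syncrip, stayed among the 3 most alike.

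H3K4me3 marks active promoters, H3K27ac active promoters and enhancers, and H3K27me3 Polycomb-repressed genes. With 1 library per mark and genotype there is no test and no error, and the fold enrichments are the authors' own. A peak was counted for a gene within 1 kb of its span. No H3K27me3 peak lay at any of the 4 loci in either genotype, where 4.35% of 21883 protein-coding genes had one in WT and 16.9% in cKO. H3K4me3 and H3K27ac peaks were present at all 4 loci in both genotypes. Among all protein-coding genes 63.7% had an H3K4me3 peak in WT and 65.4% in cKO, and 36% and 51.2% had an H3K27ac peak.

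Arid1a kept its promoter marks in the cKO list. It had 3 H3K4me3 peaks covering 4182 bases in WT and 6 covering 5242 bases in cKO. The H3K4me3 peak over the outer start ran from -665 to 474 bases in WT and from -643 to 581 bases in cKO, and the peak over the inner start was 2627 and 2936 bases long. Both printed Arid1a windows were covered by H3K4me3 over all 250 bases in both genotypes. H3K27ac had 3 peaks over 2474 bases in WT and 5 over 4650 bases in cKO, and its highest peak in either list, with a fold enrichment of 8.63 in WT and 17.1 in cKO, lay at the inner start. That peak stood at percentile 94.2 of the WT list and 99.8 of the cKO list, and H3K27ac covered the inner window fully in both lists but 31 bases of the outer one in WT and 198 in cKO.

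Arid1b had 6 H3K4me3 peaks over 5179 bases in WT and 9 over 6860 bases in cKO. H3K27ac had 14 peaks over 5540 bases in WT and 17 over 8730 bases in cKO. In both lists the promoter peaks covered the printed Arid1b window, and the highest H3K27ac fold was 9.98 in WT (percentile 98.0) and 18.5 in cKO (percentile 99.9). The highest H3K4me3 fold was 22.7 in WT (percentile 97.7) and 14.7 in cKO (percentile 84.3), the other order. Folds come from separately called lists, so neither order shows a change. Arid1b also carried H3K27ac far inside its long body. Beyond 5 kb from the start there were 10 such peaks in WT, at 112.1 to 317.8 kb, and 16 in cKO, at 10.1 to 317.7 kb. Of these, 7 of the 10 WT peaks overlapped a cKO peak and 7 of the 16 cKO peaks a WT peak. A pair of H3K4me3 peaks with WT summits at 195.4 and 195.9 kb overlapped a cKO pair, and each overlapped H3K27ac in its own genotype.

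Arid2 had 1 H3K4me3 peak covering 2789 bases of the locus in WT and 2 covering 2712 bases in cKO, and 3 H3K27ac peaks in each list over 1809 and 2157 bases. Pbrm1 had 2 H3K4me3 peaks over 1614 bases in WT and 1 over 1897 bases in cKO. Its H3K27ac was 1 peak of 250 bases in WT and 2 peaks over 852 bases in cKO. The span of Gnl3 lies 6 bases from the start of Pbrm1, so marks there cannot be assigned to 1 of the 2 genes.

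Covered length was longer in cKO in 7 of the 8 gene and mark pairs. The cKO over WT ratio for H3K27ac was 1.88 at Arid1a, 1.58 at Arid1b, 1.19 at Arid2 and 3.41 at Pbrm1, against a median of 1.76 (quartiles 1.31 and 2.60) over 7730 genes with a peak in both lists, 91% of which were longer in cKO. For H3K4me3 it was 1.25, 1.32, 0.972 and 1.18, against a median of 1.12 (quartiles 1.01 and 1.28) over 13836 genes, 76.9% of which were longer. The cKO H3K27ac list as a whole held 24065 peaks against 13006 in WT. Arid1a lay between the quartiles for both marks, and Arid2 below the lower quartile for both. Only bases within 1 kb of the span were counted, and peaks at Arid2 ran past that limit. Taken whole, its H3K27ac peaks held 2299 bases in WT and 4089 in cKO, and its H3K4me3 peaks 6134 and 5421. The low H3K27ac ratio of Arid2 therefore depends on the limit. Pbrm1 was above the upper quartile for H3K27ac and Arid1b for H3K4me3.

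**Figure D4:**
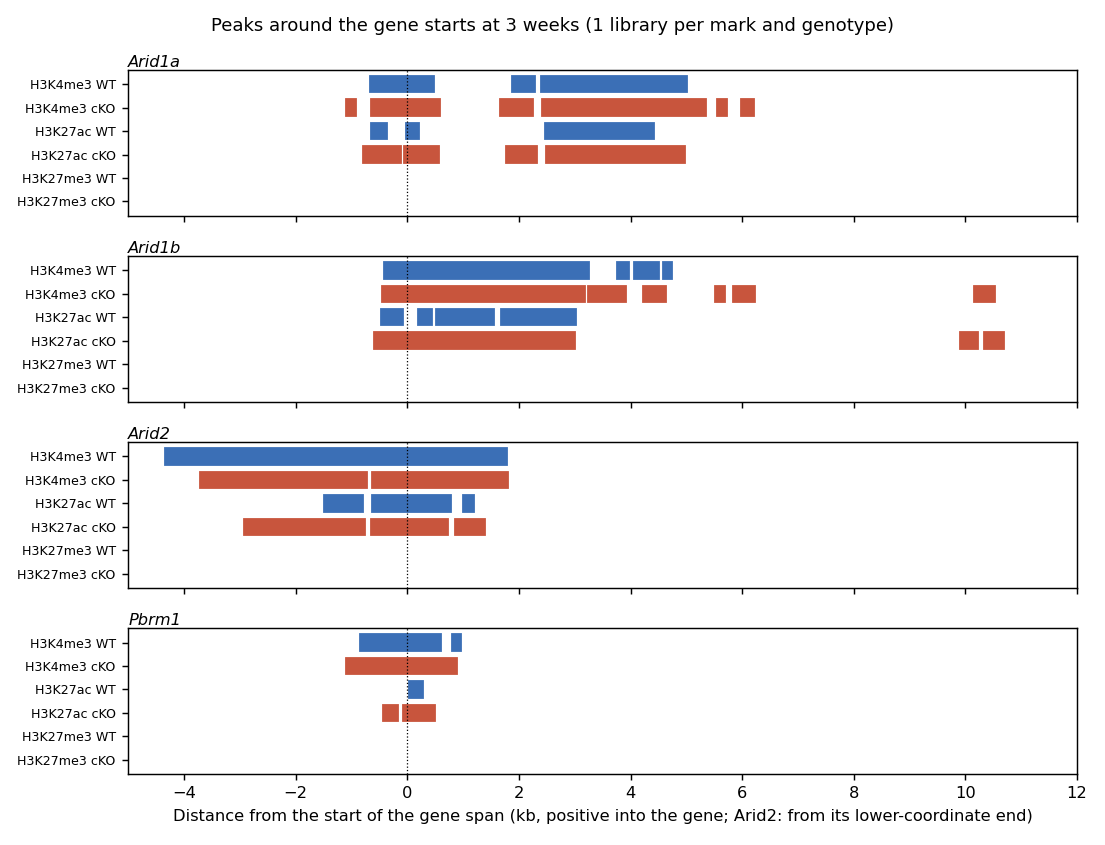
Peaks of the 3 marks around the start of each gene span, 1 row per mark and genotype, with distance in kb on the horizontal axis (blue WT, red cKO); zero is the first base of the span, and for Arid2, whose strand is not in the tables used, its lower-coordinate end. H3K4me3 and H3K27ac peaks lie at all 4 starts in both genotypes and the H3K27me3 rows are empty; peaks beyond 12 kb are not drawn.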

How the data were processed

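The authors deposited estimated counts per gene, 1 table per age, with Salmon 1.0.0 and GRCm38 named in the submitters' processing notes, and tables of log2 fold changes, p-values and a baseMean score, for which those notes name DESeq2 1.26.0. Per the file headers the deposited peak lists come from MACS 2.2.7.1 (the notes name MACS2 2.2.5) with a q limit of 0.01, 1 library each with its input, giving pileup signal, fold enrichment ratio and −log10 p and q. Alignment used Bowtie2 2.3.5.1, per the submitters' processing notes.

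Estimated counts were rounded and tested with edgeR 4.0.16 in R 4.3.3 (filterByExpr, TMM, robust quasi-likelihood F test) for each age alone, with Benjamini-Hochberg adjustment over all genes and a threshold of 0.05. The difference between ages and the WT age contrast came from 1 fit of 10 libraries. Standard errors follow from F. CPM in the text are scaled over the 10 libraries, except marker sums, which are scaled within an age. Alternatives used DESeq2 1.42.0. The steps were tested on simulated data. Groups came from sample titles; the design states biological replicates for RNA, so p-values measure the spread between 2 or 3 animals or pools, which the labels do not distinguish. Members and lists were chosen with earlier results of these data known. Beyond the 4 genes, the text names list genes past the threshold, otherwise the 1 with the lowest p per list and age, and the 3 genes most like each member.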

Additional observations from a re-analysis of the deposited data

How the results depend on the processing

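The fall of Arid1a at P21 was called in all 10 alternatives (-1.23 to -0.94). At E16.5 it kept its direction in all 12 but was called in 5; leaving out 1 library each gave -0.67 to -0.61 with no call, and the fit with the replicate number as a block gave -0.64 (adjusted p 0.370 in edgeR). Whether the numbers pair the samples is not known. Same-numbered deviations correlated at 0.04 at P21, where 2 libraries per group give every such correlation the same size, so it cannot decide. At E16.5 they correlated at -0.45 to 0.01, and no sample correlated best with its own number. Low Xist counts fell on the same replicate number in both genotypes at each age. The block moved the calls over all genes from 21 to 0 at E16.5 and from 1169 to 862 at P21. With it Actl6b was not called at P21 (-0.45, adjusted p 0.109 in edgeR) and 2 list genes were.

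No cKO effect on Arid1b, Arid2 or Pbrm1 was called in any alternative. At P21 their small changes crossed 0: Arid1b was 0.00393 with upper-quartile scaling and -0.14 to 0.0418 with 1 library left out, Arid2 -0.16 to 0.0430 and Pbrm1 -0.0510 to 0.19. The Pbrm1 difference between ages ran from -0.20 to 0.0374. The Arid1a difference between ages was called with DESeq2 (-0.53). The WT age difference of Arid1a was called with upper-quartile scaling (-0.24) and without P21 cKO replicate 1 or replicate 2 (range over all libraries left out -0.25 to -0.16), and that of Arid1b was 0.42 with the replicate block, not called.

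Genes called at P21 numbered 1169, and 2149 without the filter on low counts, 505 in 1 fit of 10 libraries and 431 to 2871 with 1 library left out. Upper-quartile scaling gave 570 higher and 519 lower, against 489 and 680. At E16.5 there were 21, and 129 without the filter, 1066 with DESeq2, 178 in 1 fit of 10 libraries and 0 to 15 with 1 library left out. List genes called at P21 were 3, and 5 without the filter, 1 in 1 fit and 0 to 8 with 1 left out; at E16.5 0, 1 without the filter and 8 with DESeq2. With 1 library left out at P21, the lone sample is assumed to vary like the rest. A stricter q limit left 3 of 6 WT and 8 of 9 cKO H3K4me3 peaks at Arid1b, and 6 of 14 WT and 13 of 17 cKO H3K27ac peaks. Few libraries limit the precision: a rise of Arid1b, Arid2 or Pbrm1 up to the upper ends of the intervals given was not excluded. For Arid1b at E16.5 the interval (101.8% to 144.0%) lay wholly above the WT level. Its unadjusted p of 0.0354 in edgeR did not pass after adjustment over all genes (0.217).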

Other observations

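The WT age contrast was also read for the subunit lists, whose genes named here were chosen after their values were seen. Of 13 core subunits 11 were lower at P21 and 1 was higher (Bcl7b), with a median log2 difference of -1.11. Over all genes 32.6% were lower and 27.8% higher at P21, with a median of -0.12. Bcl7c (-2.53), Smarce1 (-1.77), Smarcb1 (-1.69) and Actl6a (-1.60), the progenitor actin-related subunit, were among the lower ones. The 2 ATPases moved in opposite directions, Smarca4 by -0.80 (adjusted p 0.000317 in edgeR) and Smarca2 by 0.55 (adjusted p 0.0111 in edgeR). Dpf3 was higher at P21 by 1.42 (adjusted p 0.00261 in edgeR), and of the 3 non-canonical BAF genes Bicral (1.11) and Brd9 (0.35) were higher and Bicra (-0.71) lower. Age and the separately deposited tables cannot be told apart in these values.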
